A study of Rattus norvegicus with 12 samples.

Results

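Mki67, Top2a, Cdk1, Pcna and Cdkn1a, 4 genes of dividing cells and 1 gene of cell cycle arrest, were followed in T9 spinal cord (ninth thoracic segment) of Sprague Dawley rats, an outbred strain. They were taken by their Ensembl identifiers (ENSRNOG00000028137, ENSRNOG00000053047, ENSRNOG00000000632, ENSRNOG00000021264 and ENSRNOG00000000521, in that order), and all 5 were among the 32883 genes of the count table. The symbols came with the list of identifiers, and the pairing was not checked, since no table used here pairs these identifiers with names. Each of 3 groups had 4 libraries: cord without injury, cord taken 5 days after a hemisection at the measured segment (called injured), and cord taken 5 days after the same injury from animals that received epidural electrical stimulation over segments L2 to S1 (called stimulated). Genotype, sex, age and any sham operation are not given in the labels, and the labels do not say whether the animals without stimulation carried an electrode.

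In a dividing cell the genome is copied and then parted in mitosis, and the transcripts of the proteins that do this are made mostly in cells that have entered the cycle. Mki67 encodes Ki-67, which coats mitotic chromosomes and is the usual histological marker of cycling cells. Top2a encodes the topoisomerase that untangles chromosomes before they part, Cdk1 the kinase that drives entry into mitosis, and Pcna the sliding clamp of the replicative DNA polymerases, which also serves in DNA repair. Cdkn1a encodes an inhibitor of cyclin-dependent kinases that stops the cycle and is induced by p53 and by other stress signals. The adult cord holds few dividing cells, and after injury microglia, astrocytes, oligodendrocyte precursors, ependymal cells and cells of the vessel wall are known to divide. In bulk tissue, a change in the number of cells of a type and a change in RNA per cell cannot be told apart. Markers of these cell types and of the labelled tissue, and further genes of the cell cycle, were not analysed here for want of names.

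Promoters of genes that act late in the cycle are known for CCAAT boxes, bound by NF-Y, beside a cell cycle homology region, read by the complexes that silence these genes in resting cells. All 5 symbols matched the RefSeq promoter table of build GRCr8, and the 250 bases before the transcript start of that table are shown. They are given as a description, and a link between motifs and the size of a gene's change was not tested. The windows lie at chr1:199952594-199952843 (Mki67, minus strand), chr10:84473094-84473343 (Top2a, minus strand), chr20:19265043-19265292 (Cdk1, plus strand), chr3:139955821-139956070 (Pcna, minus strand) and chr20:7150682-7150931 (Cdkn1a, plus strand). Capitals mark matches, on either strand, to CCAAT, to TTTGAA (cell cycle homology region), to TTCGCGC or TTGGCGC (E2F) and to GGGCGG (GC box).
Mki67: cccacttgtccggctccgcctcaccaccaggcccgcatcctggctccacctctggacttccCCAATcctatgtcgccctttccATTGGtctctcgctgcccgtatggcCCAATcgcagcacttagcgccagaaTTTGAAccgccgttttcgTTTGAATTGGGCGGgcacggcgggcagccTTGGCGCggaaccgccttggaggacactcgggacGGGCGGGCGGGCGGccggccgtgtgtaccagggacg
Top2a: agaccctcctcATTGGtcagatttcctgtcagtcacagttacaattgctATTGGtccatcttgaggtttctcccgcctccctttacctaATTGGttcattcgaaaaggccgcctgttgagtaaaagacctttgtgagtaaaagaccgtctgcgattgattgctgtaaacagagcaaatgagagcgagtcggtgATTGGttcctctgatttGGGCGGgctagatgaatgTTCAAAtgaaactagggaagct
Cdk1: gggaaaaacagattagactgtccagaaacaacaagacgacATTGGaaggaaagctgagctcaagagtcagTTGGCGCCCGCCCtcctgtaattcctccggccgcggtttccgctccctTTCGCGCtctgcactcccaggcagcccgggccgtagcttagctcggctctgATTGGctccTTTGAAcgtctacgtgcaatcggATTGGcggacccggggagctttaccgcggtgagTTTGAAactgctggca
Pcna: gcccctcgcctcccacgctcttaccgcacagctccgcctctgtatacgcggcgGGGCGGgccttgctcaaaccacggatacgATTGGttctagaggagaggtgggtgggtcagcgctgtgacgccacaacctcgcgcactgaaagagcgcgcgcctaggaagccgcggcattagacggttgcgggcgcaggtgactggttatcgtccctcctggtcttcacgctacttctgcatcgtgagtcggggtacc
Cdkn1a: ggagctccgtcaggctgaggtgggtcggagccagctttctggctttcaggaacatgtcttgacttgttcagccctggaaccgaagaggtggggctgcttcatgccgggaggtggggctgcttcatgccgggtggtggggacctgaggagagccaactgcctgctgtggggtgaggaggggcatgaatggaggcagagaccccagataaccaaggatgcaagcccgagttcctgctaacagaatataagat

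The windows of Mki67, Top2a and Cdk1 held 4, 4 and 3 CCAAT boxes, and that of Pcna held 1. Of 33469 windows of this length in the table, 34.0% held at least 1 CCAAT box and 2.53% held 3 or more. TTTGAA stood in the windows of Mki67 (2 matches), Top2a (1) and Cdk1 (2), and in 16.2% of all windows, while 5.87% of all windows held both motifs. Mki67, Top2a and Cdk1 thus shared both motifs, and the windows of Pcna and Cdkn1a did not hold both. TTGGCGC was found in Mki67 and Cdk1 (1.78% of windows) and TTCGCGC in Cdk1 alone (1.21%). GGGCGG was found in Mki67, Top2a, Cdk1 and Pcna (30.5%). In Mki67, 1 of the TTTGAA matches shares a base with a CCAAT box, that box overlaps a GC box, and 3 other GC boxes overlap each other. None of these letters occurred in the Cdkn1a window. That says nothing of other motifs inside the window, p53 sites among them, which were not searched for, or of factors that bind elsewhere. The window lies at the transcript start of that table, and other starts of the gene were not examined. A match is a description of sequence, and binding was not measured.

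**Figure D1:**
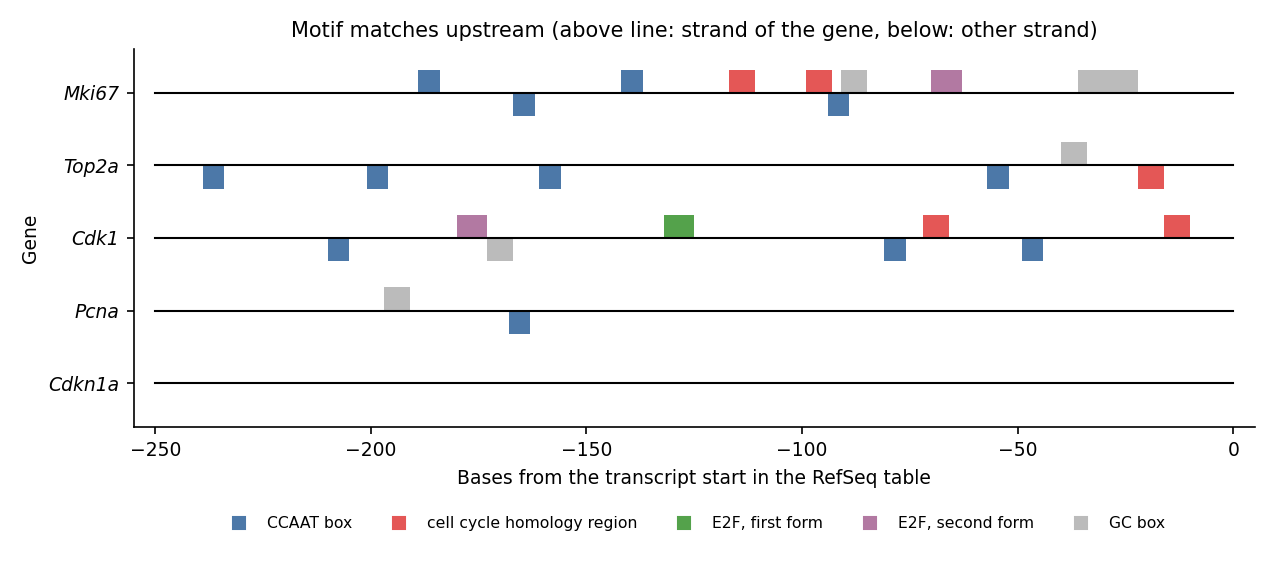
Positions of motif matches in the 250 bases before the transcript start of each gene (x axis, bases from the start; coloured boxes, motifs; above the line, strand of the gene). Mki67, Top2a and Cdk1 carry CCAAT boxes and the cell cycle homology region, Pcna carries 1 CCAAT box, and Cdkn1a has no match.

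The uninjured libraries held 254762 to 450114 counts each, the injured 399386 to 553986 and the stimulated 204836 to 306186, so the injured libraries were deeper than all stimulated ones. The members' highest count in any library was 118, far from the ceiling near 4094 that the most abundant genes reach in this table. Levels are given as CPM, counts scaled to library size with edgeR's TMM factors. Each tag comes from near a transcript's 3' end. Levels were compared between libraries for 1 gene at a time, apart from the sums, shares and count ratios given under other observations. Those describe counts and are not read as the relative abundance of the genes' transcripts.

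At 5 days after hemisection, transcripts of all 4 genes of dividing cells and of Cdkn1a were more abundant than in uninjured cord. Cdk1 went from no count in any uninjured library to 86 counts in the injured ones, and Top2a rose 22.0-fold (95% interval 11.2 to 43.2). Mki67 rose 5.58-fold (2.22 to 14.0), Pcna 3.28-fold (2.05 to 5.23) and Cdkn1a 2.58-fold (1.54 to 4.34). Each passed the edgeR quasi-likelihood test with Benjamini-Hochberg adjustment over 5285 genes, of which 16.8% were called higher. Cdk1, Top2a and Mki67 passed the filter on low counts only through the injured and stimulated libraries, so among the genes tested these 3 were bound to be higher there. Without a filter, adjusted p for the 5 genes was 3.66e-19 to 0.00102 (edgeR), where 6.41% of 18333 genes were called higher. That fit treated the spread of each gene as known, not as estimated from few libraries. For Top2a, edgeR adjusted p went from 4.34e-06 to 3.66e-19 at nearly the same standard error (0.463 and 0.467). The p-values without a filter are thus not comparable with the main ones.

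Top2a was the clearest of these. Its raw counts were 2, 4, 3 and 0 in uninjured libraries 1 to 4 and 51, 79, 66 and 117 in the injured ones. Scaled, the uninjured mean was 7.03 ± 4.71 CPM and the injured mean 169 ± 47.8 CPM (SD, n = 4 each). The groups were far apart: the highest uninjured library reached 9.85 CPM and the lowest injured one, replicate 1, stood at 100.3 CPM. The log2 fold change was 4.46 (SE 0.46, edgeR adjusted p = 4.34e-06), and 33 of the 5285 genes had a larger fitted rise. That rank is among filtered genes, and Top2a passed the filter only through the injured and stimulated libraries.

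Cdk1, the mitotic kinase, had 0 counts in all 4 uninjured libraries, out of 1329217 counts in all. A count of 0 allows up to 3 counts over the group, or 2.47 CPM on the TMM-scaled library sizes, counting error only. In injured libraries 1 to 4 it had 20, 13, 14 and 39 counts, which is 39.3, 33.6, 36.9 and 66.0 CPM. Every injured library thus showed the transcript, with replicate 4 above the other 3. From summed counts per summed TMM-scaled library size, it was 18.7-fold above that floor of 3 counts over the uninjured group. The edgeR adjusted p against uninjured cord was 0.000116. Without uninjured replicate 2, the deepest of that group, the ratio to the floor was 12.3-fold. These ratios take the injured counts as exact and leave out the spread between libraries, so they are not strict lower bounds.

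Mki67 was low throughout and its groups overlapped. Uninjured libraries 1 to 4 had 0, 3, 1 and 4 counts (0, 7.20, 3.28 and 15.2 CPM). Injured libraries had 6, 17, 21 and 26 counts (11.8, 44.0, 55.3 and 44.0 CPM). Injured replicate 1 lay below uninjured replicate 4, and the other 3 injured libraries lay above all uninjured ones. The log2 fold change was 2.48 (SE 0.63, edgeR adjusted p = 0.00617), and it was 3.10 without uninjured replicate 4.

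Pcna, which acts in replication and in repair, was present in uninjured cord at 34.7, 36.0, 29.6 and 68.3 CPM in replicates 1 to 4. In injured cord it stood at 108, 119, 121 and 199.7 CPM. The groups did not overlap, and replicate 4 was the highest library of both. The log2 fold change was 1.71 (SE 0.32, edgeR adjusted p = 0.000728).

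Cdkn1a, the arrest gene, was at 117, 52.8, 75.5 and 22.8 CPM in uninjured replicates 1 to 4. In injured cord its libraries lay close together, at 183, 155, 189.7 and 157 CPM. All injured libraries were above all uninjured ones, and the wide spread was on the uninjured side. The log2 fold change was 1.37 (SE 0.36, edgeR adjusted p = 0.00697). In CPM, 4 of the 5 genes (Top2a, Cdk1, Pcna and Cdkn1a) had no overlap between injured and uninjured libraries. Of the genes tested, 16.6% stood apart in that direction. For Top2a and Cdk1 this adds no support, since they passed the filter only through the injured and stimulated libraries.

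The rises differed in size within the list. The interval of Top2a on the log2 scale, 3.49 to 5.43, lay above those of Pcna (1.04 to 2.39) and Cdkn1a (0.62 to 2.12). The interval of Mki67 (1.15 to 3.81) overlapped all of these. These are intervals of single genes, and the differences between genes were not tested.

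**Figure D2:**
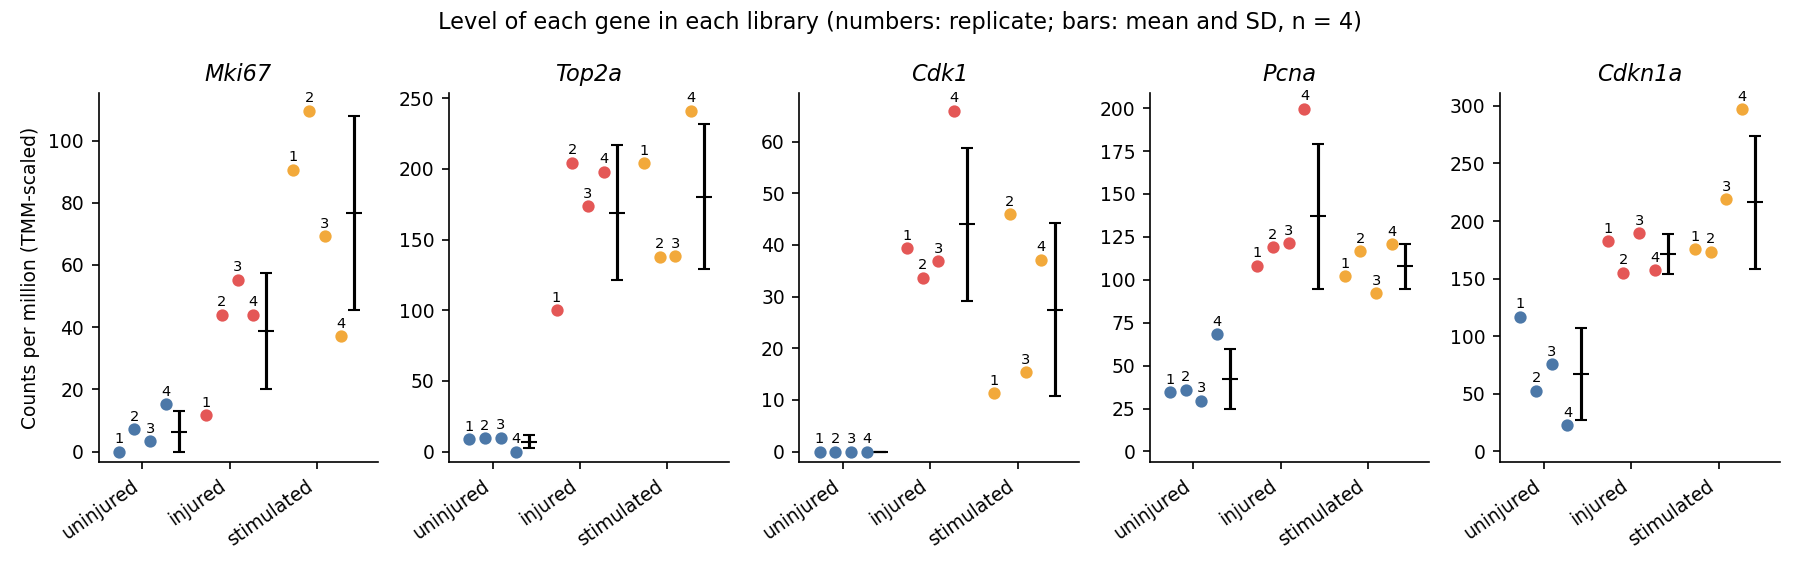
Level of each gene in each library (y axis, TMM-scaled CPM; points, libraries with their replicate number; black bars, mean and SD, n = 4). Cdk1 is at 0 in the 4 uninjured libraries, Top2a stays at 9.85 or lower there against 100.3 or higher after injury, and injured and stimulated libraries overlap for every gene.

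The second comparison asked how the 5 genes stood with stimulation relative to injury alone. None differed past the threshold, and neither did any other gene that passed the filter: 0% of these 5285 genes were called by the edgeR quasi-likelihood test, with 491 genes at unadjusted p under 0.05. Without a filter edgeR called 28 of 18333 genes, none of them among the 5. Limma-voom with sample weights gave 0 calls and DESeq2 gave 1, which was not among the 5. Neither of the groups stood apart from the other for any of the 5 genes, where 4.82% of genes tested did. The intervals leave room for sizeable differences, so the groups are not shown to be alike.

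Mki67 had the lowest p of the list. Stimulated libraries 1 to 4 had 16, 31, 18 and 8 counts, which is 90.6, 109.7, 69.2 and 37.1 CPM. Replicates 1 to 3 lay above every injured library, whose highest was 55.3 CPM, and replicate 4 lay below 3 of them. The mean was 76.7 ± 31.1 CPM against 38.8 ± 18.8 CPM in injured cord (SD, n = 4 each). The ratio was 2.0 (95% interval 1.02 to 3.94), with an unadjusted p of 0.0448 and an edgeR adjusted p = 0.535. At that unadjusted level 4.75% of genes were higher in stimulated cord. Without injured replicate 1, the library with the lowest Mki67 of that group, the log2 fold change was 0.68 in place of 1.00.

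The mean of Cdk1 was 27.5 ± 16.8 CPM in stimulated cord, under the 44.0 ± 14.9 CPM of injured cord (SD, n = 4 each), without passing the test. Stimulated libraries 1 to 4 had 2, 13, 4 and 8 counts (11.3, 46.0, 15.4 and 37.1 CPM). Replicates 1 and 3 fell below all injured libraries, while replicates 2 and 4 lay within their range. The ratio to injured cord was 0.64 (95% interval 0.32 to 1.26, edgeR adjusted p = 0.65). Summed counts per summed total gave 0.56, with an exact Clopper-Pearson interval of 0.35 to 0.87 that covers counting error only. The interval from counting alone stays below 1 and the one that includes the spread between libraries does not.

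Top2a, at 204, 138, 138 and 241 CPM in stimulated libraries 1 to 4, had nearly the same mean as in injured cord (180 ± 51.1 against 169 ± 47.8 CPM, SD, n = 4 each). Its ratio was 1.06 (0.66 to 1.71, edgeR adjusted p = 0.951), and its sign turned under 5 alternatives. Pcna was at 102, 117, 92.2 and 121 CPM, a ratio of 0.79 to injured cord (0.51 to 1.21, edgeR adjusted p = 0.704). All stimulated libraries lay below the highest injured library at 199.7 CPM, and within or below the range of the other 3. Cdkn1a was at 176, 173, 219 and 297 CPM, a ratio of 1.26 (0.78 to 2.05, edgeR adjusted p = 0.751). Its replicates 3 and 4 lay above all injured libraries and the other 2 within their range.

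**Figure D3:**
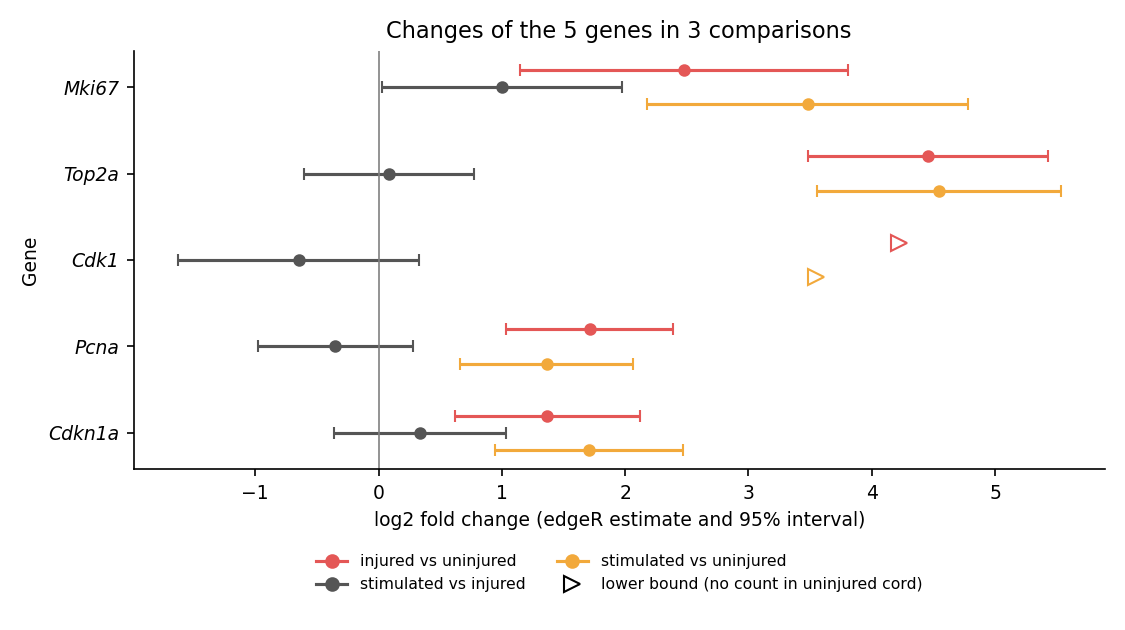
Log2 fold change of each gene in the 3 comparisons (x axis; points and bars, edgeR estimate and 95% interval over 12 libraries; open triangles, ratio of Cdk1 to a floor of 3 counts, since it had no count in uninjured cord). The triangles are labelled as a lower bound in the figure, but take the counts of the other group as exact. The intervals of Top2a, Cdk1, Pcna and Cdkn1a for stimulated against injured cord include 0, that of Mki67 runs from 0.03 to 1.98, and the changes against uninjured cord lie above 0.

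Against uninjured cord, the stimulated cord also had higher levels of all 5 genes. This comparison uses the same 4 uninjured libraries as the first, so they are not independent. Top2a was 23.3-fold higher (11.8 to 46.2, edgeR adjusted p = 2.97e-06) and Mki67 11.2-fold (4.53 to 27.5, edgeR adjusted p = 0.000371). Without uninjured replicate 4, the log2 fold change of Mki67 was 4.09 in place of 3.48. That library had the highest Mki67 level of the uninjured group. Cdk1 had 27 counts against 0 (edgeR adjusted p = 0.000413). It was 11.7-fold above the floor of 3 counts, and 7.69-fold without uninjured replicate 2, with the stimulated counts taken as exact. Cdkn1a was 3.26-fold higher (1.92 to 5.53, edgeR adjusted p = 0.00143) and Pcna 2.57-fold (1.58 to 4.18, edgeR adjusted p = 0.00422). Of the genes tested, 18.3% were called higher, and without a filter 6.28%. All 5 genes had no overlap between stimulated and uninjured libraries, where 16.0% of genes tested stood apart in that direction. For Mki67, Top2a and Cdk1 this adds no support, since they passed the filter only through the injured and stimulated libraries. The point estimates of Mki67 and Cdkn1a were larger than in injured cord and those of Cdk1 and Pcna smaller, and the test of these differences is the second comparison, which none passed.

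The order of the group means was the same for Mki67, Top2a and Cdkn1a, which were lowest in uninjured and highest in stimulated cord. Cdk1 and Pcna were highest in injured cord. Injured and stimulated cord were the neighbours at the top of each order, and for none of the 5 genes did their difference pass the test.

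Within groups, the 5 genes as a whole did not move together from library to library, while Cdk1 and Pcna lay on the same side of their group means in each of the 8 injured and stimulated libraries. Cdk1 and Pcna were both 0.57 above the mean in log2 CPM in injured replicate 4, and below it in the other injured libraries. This pair was picked after the values were seen, and the share of other gene pairs that do so was not computed. Departures balance out within a group, so the 8 signs are not independent. In uninjured replicate 4, Mki67 and Pcna were the highest of their group and Top2a and Cdkn1a the lowest. Cdkn1a stood there at 1.16 below its group mean on the log2 CPM scale, and Pcna at 0.69 above. In injured replicate 1, Mki67 and Top2a were low (1.19 and 0.67 below the mean in log2 CPM) while Cdk1 was only 0.10 below. In stimulated replicate 4, Mki67 was the lowest of its group, at 0.85 below the mean, and Top2a and Cdkn1a were the highest.

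Cdk1 in stimulated cord had the highest coefficient of variation (SD over mean of CPM) among the 5 genes in the injured and stimulated groups, 61.1%. A component holding 39.5% of the within-group variance over the other genes tested also separated the stimulated libraries. It set stimulated replicates 1 and 3 (scores 0.27 and 0.31) apart from replicates 2 and 4 (-0.23 and -0.35). Cdk1 was at 11.3 and 15.4 CPM in the first pair and 46.0 and 37.1 CPM in the second. In injured cord the component set replicates 1 and 3 apart from 2 and 4 as well, but there Cdk1 was lowest in replicate 2 and highest in replicate 4. The part of this component in the Cdk1 values was not tested.

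The spread between libraries was set against counting error. For Mki67 the coefficient of variation was 48.4% in injured and 40.6% in stimulated cord, against 24.4% and 23.9% from counting alone. For Cdk1 it was 33.9% and 61.1%, against 22.0% and 39.0%. For Top2a it was 28.2% and 28.3%, against 11.5% and 15.9%. For Cdkn1a it was 10.2% and 26.7%, against 11.4% and 14.3%, and for Pcna 30.8% and 12.2%, against 12.5% and 20.2%. Cdkn1a in injured cord and Pcna in stimulated cord thus varied no more than counting would give, and each exceeded it in the other group.

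**Figure D4:**
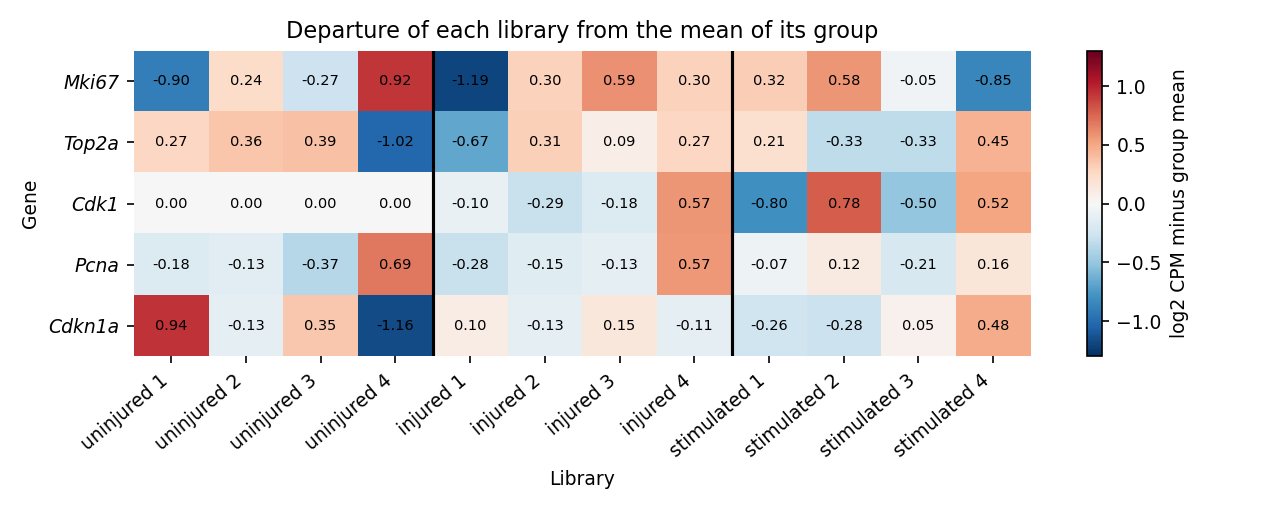
Departure of each library from the mean of its group in log2 CPM (columns, 12 libraries with black lines between groups; rows, genes; red above and blue below the mean). Uninjured replicate 4 is high for Mki67 (0.92) and Pcna (0.69) and low for Top2a (-1.02) and Cdkn1a (-1.16), and Cdk1 is 0 throughout uninjured cord because it had no counts.

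Likeness of pattern was measured as the root mean square difference of log2 CPM over the 12 libraries, each gene taken relative to its own mean. For Cdk1 the nearest of the other members was Pcna, at rank 125 of 5284 genes (0.72). For Top2a it was Cdk1, at rank 132 (0.89), and for Mki67 it was Pcna, at rank 296 (0.86). For Cdkn1a it was Pcna, at rank 751 (0.76), and for Pcna it was Cdk1, at rank 1230 (0.72). Many genes outside the list were thus nearer to each member than the other members were. The nearest gene to Pcna was ENSRNOG00000018911 (0.20) and to Cdkn1a ENSRNOG00000019041 (0.29), shown as the closest 2 of the 5 nearest genes after their values were seen. This measure favours genes of like size of change, and it is given as a description.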

How the data were processed

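Gene expression was measured in 12 libraries of rat spinal cord. Libraries were made with CEL-Seq2, which tags transcripts near their 3' ends, per the labels' protocols. The authors deposited whole-number counts per gene and library. HISAT2 2.0.4, HTSeq 0.6.0 and build Rnor_6.0 are named in the submitters' processing notes, with no role or order. The sources used here do not state the use of molecular identifiers, the annotation release or the strand setting. Overlapping or antisense genes may thus have been counted together. The largest count of any gene was 4059 to 4094 in every library, although totals ran from 204836 to 553986. Counts of the most abundant genes are thus capped in this table, and the source of the cap was not tested.

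Groups came from the labels, which do not tie libraries to animals: p-values cover only the spread among these libraries, which may be technical. Each pair of libraries within a group differed by more than sampling noise (chi-square over degrees of freedom 2.95 or higher). Totals were 204836 to 553986 counts. Genes were kept by edgeR's filterByExpr (5285 genes, 92.6% to 93.9% of counts), which here asks for about 30.4 CPM, or 10 counts at the median total. Libraries were scaled by TMM. One quasi-likelihood model (edgeR 4.0.16, R 4.3.3, robust, group as the only term, 9 residual degrees of freedom) gave 3 contrasts, with Benjamini-Hochberg adjustment over all genes tested and a threshold of 0.05. Standard errors are the log2 fold change over the square root of F, and 95% intervals use the moderated degrees of freedom. Log2 CPM used a prior count of 2. Intervals of count ratios are exact Clopper-Pearson intervals of counting error. The fit was tested on simulated data with known changes. Alternatives were median-ratio factors, total counts, no filter, a mean count of 20, the 2 groups alone, the replicate block, DESeq2 1.42.0, limma-voom (limma 3.58.1) with sample weights, and each library left out in turn. Thinning to equal totals was chosen after seeing the data.

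The members and lists were chosen with earlier results of these data known. Rules for naming further cell cycle genes and cell type markers by symbol were not applied, because 0 identifiers matched a name in the RefSeq table. Named genes are the 5 members and, of the genes nearest to each in pattern, at most 2 identifiers.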

Additional observations from a re-analysis of the deposited data

Results flagged for a closer look

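Among the 4 libraries of a group, the highest or lowest was marked when it stood apart from its neighbour by more than Dixon's 95% limit. This held in 3 of 14 sets (5 genes in 3 groups, less Cdk1 in uninjured cord). Chance gives about 0.7 for normally distributed values, and the sets share libraries, so they are not independent. Top2a was at 0 CPM in uninjured replicate 4, and its other uninjured libraries stood at 8.67 to 9.85 CPM, from 2 to 4 counts each. The coefficient of variation of Top2a in uninjured cord, 67.1%, was no more than the 68.6% from counting alone. Pcna was at 68.3 CPM in uninjured replicate 4 as well, where the others were at 29.6 to 36.0 CPM. Pcna was at 199.7 CPM in injured replicate 4, where the others were at 108 to 121 CPM. Without injured replicate 4, the log2 fold change of Pcna was 1.44 against uninjured cord (edgeR adjusted p = 0.00383) and -0.11 for stimulated against injured cord (edgeR adjusted p = 0.954).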

How the results depend on the processing

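Against uninjured cord, the 5 genes kept their direction and an adjusted p under 0.05 under every alternative that could be fitted. These were 81 values for injured and 80 for stimulated cord. Mki67, Top2a and Cdk1 passed the filter only through the injured and stimulated libraries. For these genes, a kept direction adds no support in the fits that used a filter. Adjusted p reached at most 0.0384 (Mki67 in injured cord, thinned to equal totals). Cdk1 and Mki67 fell under the minimum mean count of 20, and Cdk1 also under the filter after thinning. With the 2 groups alone, Mki67 left the test in both comparisons with uninjured cord and Cdk1 in that of stimulated cord. The fitted log2 fold change of Cdk1 depends on how 0 counts are treated (6.91, and 4.76 with limma-voom), so only its bound is given. For stimulated against injured cord no gene of the 5 was called in any of 82 values. The sign of Top2a (0.085) turned with total counts (-0.075), no filter (-0.023), thinning (-0.044), and leaving out single libraries (-0.12 without injured replicate 1 to 0.19). With total counts the median of all genes shifted to 0.12 for injured against uninjured and -0.15 for stimulated against injured cord.

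Genes called between injured and uninjured cord went from 1692 to 1123 with a mean count of 20, when 3113 genes in place of 5285 were tested. Between stimulated and injured cord the count of 0 became 28 with no filter, 1 with DESeq2, and 0 to 1 on leaving out single libraries (1 without stimulated replicate 3). Replicate numbers were shared across groups, and 6 of 12 library pairings matched best with their own number. These were all the pairings of replicates 3 and 4, whose deviations correlated at 0.28 to 0.43. No pairing of replicates 1 and 2 did so (-0.34 to 0.12). The labels do not pair the libraries, so the main fit has no replicate term. Replicates 3, and likewise replicates 4, thus deviated alike across groups. Departures balance out within a group, so these pairings are not independent. How often chance would give such matches was not computed, and their source was not tested. With the replicate block, 1801 genes were called in injured and 1911 in stimulated cord relative to uninjured cord, 0 between stimulated and injured cord, and no call of the 5 genes changed. Depth limits Mki67 and Cdk1 most, with 12.6 and 9.42 counts per library on average.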

Other observations

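Summed over Mki67, Top2a, Cdk1 and Pcna, the level was 55.6 ± 19.2 CPM in uninjured, 389 ± 102 CPM in injured and 392 ± 53.1 CPM in stimulated cord (SD, n = 4 each). The ranges of injured (259.5 to 508) and stimulated libraries (315 to 436) overlapped. The make-up of the summed counts was less alike. Mki67 made up 9.54% of 734 counts in injured and 20.1% of 364 counts in stimulated cord. Cdk1 made up 11.7% and 7.42%, Pcna 36.1% and 27.7%, and Top2a 42.6% and 44.8%. In uninjured cord Pcna made up 74.6% of 67 counts. These shares pool the 4 libraries of a group and no test was attached.

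Set within each library, which removes the scaling, Mki67 had 11.8, 21.5, 31.8 and 22.2 counts per 100 counts of Top2a in injured replicates 1 to 4 and 44.4, 79.5, 50 and 15.4 in the stimulated ones. Stimulated replicates 1 to 3 were above all injured libraries and replicate 4 was within their range. Cdk1 had 36.4, 28.3, 30.4 and 33.1 counts per 100 counts of Pcna in injured cord. In stimulated cord the values were 11.1, 39.4, 16.7 and 30.8, so the ratio was steady across injured libraries and split between the pair 1 and 3 and the pair 2 and 4 of stimulated cord. The Cdk1 counts behind the stimulated ratios were 2 to 13.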
